A study of Mus musculus with 27 samples.

Results

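Proteolysis at the cell surface was followed in the developing mouse optic stalk through 9 of the 55487 genes counted, the metalloproteinase Mmp14, its relatives, its substrate Mmp2 and their inhibitors. Mmp14, Mmp15 and Mmp16 code for membrane-type matrix metalloproteinases, and Mmp2 codes for gelatinase A, which is secreted as an inactive precursor. Timp1, Timp2, Timp3 and Reck code for metalloproteinase inhibitors, and Bsg codes for basigin, also called EMMPRIN, a transmembrane glycoprotein. The genes were listed by name for their role, with earlier results of these data known, although no measured value enters the choice rule. All 9 were in the table, and all 9 were among the 16330 genes with more than 10 reads in at least 3 of the 27 libraries.

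The tissue was the optic stalk of C57Bl6/J mouse embryos at embryonic day 14 (E14), the structure that guides the axons of retinal ganglion cells (RGCs) and gives rise to astrocyte progenitors of the optic nerve head. A dorsal piece, a ventral piece and a piece rich in RGC axons were laser-captured from each embryo, on cryosections stained with Cresyl Violet. The 5 mutant embryos (Smarcc1-DCT-cKO) carried Baf155 loxP/loxP, Dct-Cre and the Z/EG reporter. The 4 controls were littermates without Dct-Cre, and the loxP alleles of each control are not given in the sources used here. Smarcc1 (Baf155) codes for a core subunit of the SWI/SNF chromatin remodelling complexes. Dct-Cre is active in the pigmented lineages and in the stalk, from the dorsal side first and then ventrally, and in only some of the Pax2-positive cells of the optic disc. Per the labels, batch A holds 1 control and 3 mutant embryos and batch B holds 3 controls and 2 mutants.

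Each library held 10899418 to 33980417 counts, so that 1 read was worth 0.0294 to 0.0917 CPM (the count scaled to the library's total), and 3 reads, the floor used for a count of 0, were worth 0.0883 to 0.275 CPM. The cDNA was amplified by PCR without molecular identifiers, so such limits cover counting error only. The targeted gene, Smarcc1, was lower in the mutant libraries of the ventral piece (14.7 to 64.4 CPM against 75.7 to 198 CPM in controls) and of the axon piece (1.86 to 44.9 CPM against 50.1 to 242 CPM), with no overlap. In the dorsal piece, the libraries labelled mutant 1 and mutant 2 had 94.9 and 107 CPM of Smarcc1, inside the control range of 75.9 to 289 CPM, and the 3 others had 2.26 to 44.3 CPM. The main dorsal results are therefore also given without these 2 embryos. The axon label was checked against 8 neuronal and axonal genes. Nefm, a neurofilament gene, had 957 CPM on average in axon pieces of controls and 1290 CPM in those of mutants, against 34.3 to 125.9 CPM in the other groups. Tubb3 (100 CPM in dorsal, 98.4 in ventral and 13.5 in axon pieces of controls), Elavl4 (30.6, 35.8 and 0.0115) and Isl1 (31.6, 36.4 and 0.791) were lower there. Pou4f2, a ganglion cell transcription factor, had reads only in ventral mutants (2.56 CPM on average), so it does not bear on the axon label. The sum of all 8, mostly Nefm, was 1185 to 1577 CPM in axon controls and 805 to 2133 CPM in axon mutants, and dorsal control 2 (1008 CPM) and ventral control 2 (1411 CPM) lay in that range. Axon pieces held fewer genes with a count, with 12143 ± 1797 in the control group (SD, n = 4), while mutants had 10146 ± 796 (SD, n = 5), against means of 13576 to 14294 in the dorsal and ventral groups. In bulk pieces such as these, fewer cells of a type and less RNA per cell cannot be told apart.

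Membrane-type metalloproteinases cut collagens, laminins and receptors directly at the cell surface. Mmp14 (MT1-MMP) also activates the Mmp2 precursor, in a complex in which Timp2 acts as the bridge, so that Timp2 can help or block activation according to its amount. Timp1 is a poor inhibitor of the membrane-type enzymes, Timp2 and Timp3 inhibit them well, and Reck is a membrane-anchored inhibitor that also takes part in Wnt7 signalling in vessels. In embryonic tissue Mmp2 is known mainly from mesenchyme.

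The promoters of Mmp14 and Reck are shown, as examples among the genes with a window and a dorsal difference, because Smarcc1 belongs to a chromatin remodelling complex. The reference table of 250 bases before each RefSeq start (GRCm38.p6) held 6 of the 9 genes, Mmp14, Mmp15, Timp1, Timp2, Timp3 and Reck. Capitals mark each GC box (GGGCGG on either strand), the motif bound by Sp1-type factors. The Mmp14 window lies at chr14:54431348-54431597 and the Reck window at chr4:43875280-43875529, both on the plus strand.
Mmp14: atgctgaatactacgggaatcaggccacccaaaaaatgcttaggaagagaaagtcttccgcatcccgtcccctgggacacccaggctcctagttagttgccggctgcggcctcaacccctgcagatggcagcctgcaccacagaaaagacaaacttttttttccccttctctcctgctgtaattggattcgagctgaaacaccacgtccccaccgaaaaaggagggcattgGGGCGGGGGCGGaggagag
Reck: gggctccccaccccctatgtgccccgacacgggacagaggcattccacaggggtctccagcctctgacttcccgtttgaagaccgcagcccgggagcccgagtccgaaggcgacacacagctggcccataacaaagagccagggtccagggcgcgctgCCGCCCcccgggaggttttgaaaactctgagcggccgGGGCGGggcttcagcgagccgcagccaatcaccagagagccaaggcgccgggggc
All 6 windows held a GC box, as did 32.7% of the 32851 promoter windows in the table. In the Mmp14 window they began 19 and 13 bases before the start, and in the Reck window 92 and 55 bases before it. None of the 6 held TATAAA, the AP-1 motif TGANTCA, the E boxes CACGTG and CATGTG or the OTX motif TAATCC on either strand, letters found in 12.4%, 6.75%, 6.02%, 12.3% and 6.25% of all windows. GC made up 55.2% of the Mmp14 window and 68.4% of the Reck window, against a median of 52.4% over all windows.

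Expression of the 9 genes spanned a wide range. Per kilobase of exon, mean levels over the 27 libraries were 424 CPM for Bsg, 34.3 CPM for Timp1, 17.3 CPM for Mmp14, 16.1 CPM for Mmp2 and 13.8 CPM for Timp2. Reck (2.86 CPM per kilobase), Timp3 (2.48), Mmp15 (2.28) and Mmp16 (2.13) were lowest on that scale. Mmp14 and Bsg had reads in all 27 libraries. Reads were absent from 1 library for Timp2, 4 for Mmp2 and for Mmp16, 7 for Mmp15 and for Timp1, 8 for Timp3 and 12 for Reck. The spread between libraries, as the SD of log2(CPM + 1), was 0.36 for Bsg, 1.22 for Mmp14 and 1.97 to 2.64 for the other 7 genes. Most comparisons of those 7 genes are thus limited by libraries that hold no reads beside others of the same group with 10 or more CPM.

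**Figure D1:**
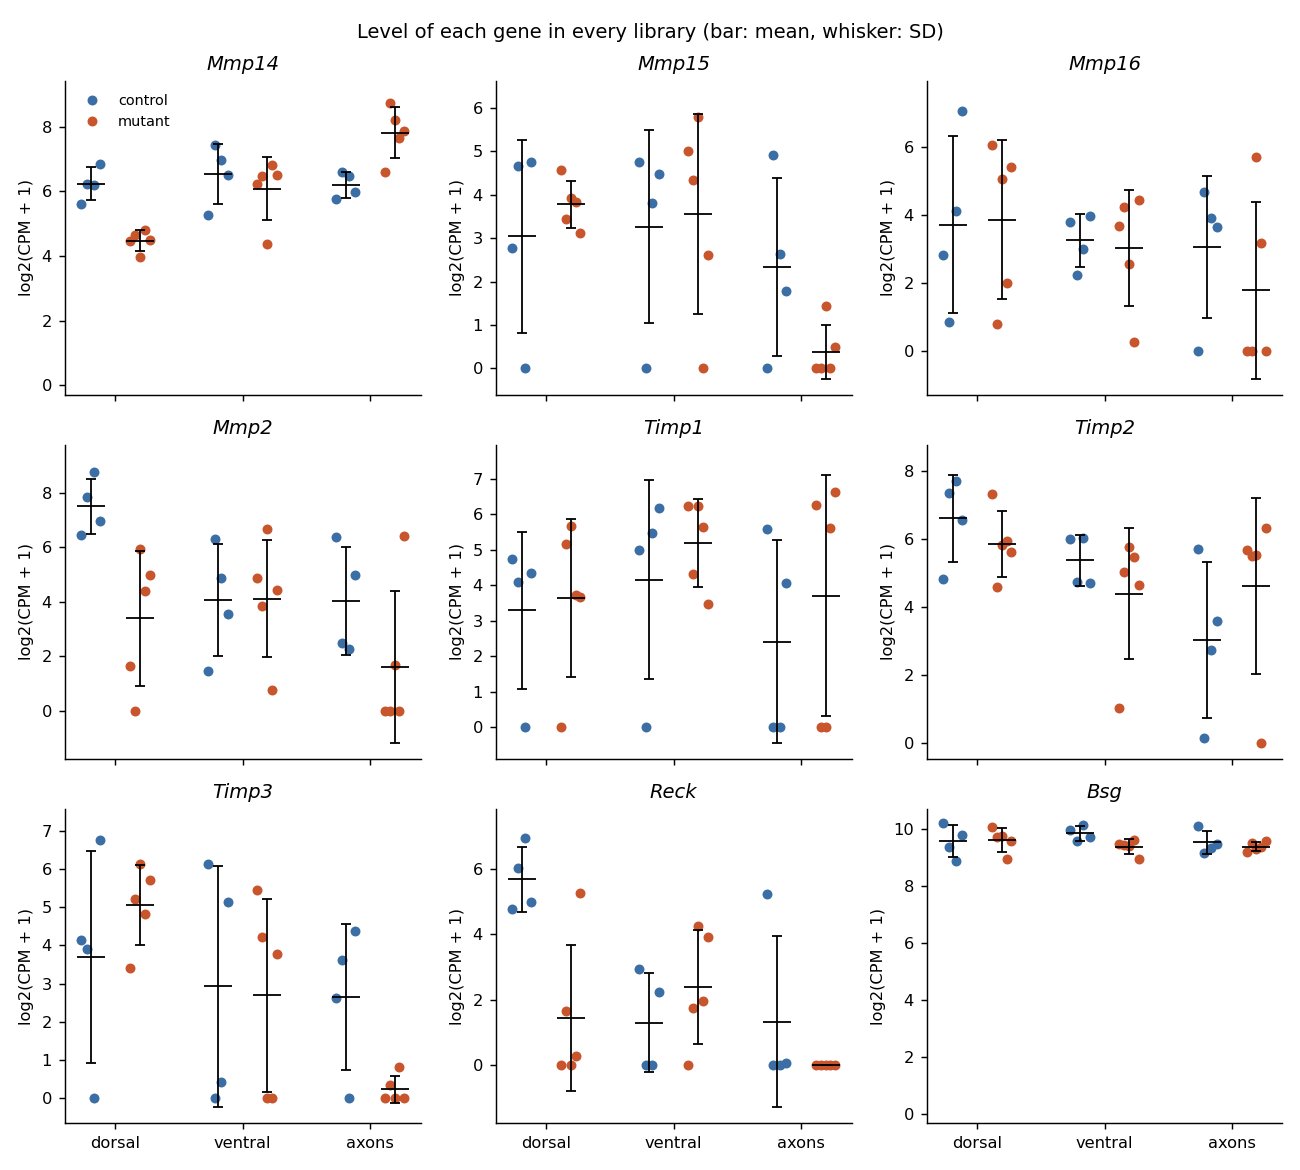
Level of each of the 9 genes in every library, as log2(CPM + 1), by captured region. Blue points are control libraries (n = 4 a region), orange points are mutant libraries (n = 5), bars are means and whiskers SDs. Mmp14 separates the genotypes in the dorsal piece and, in the other direction, in the axon piece, whereas Bsg stays within 474 to 1191 CPM.

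Mmp14 was lower in the dorsal piece of mutants and higher in their axon piece. The gene (ENSMUSG00000000957.11) lies at chr14:54431612-54445364 (mm10, plus strand). In the dorsal piece, the 4 controls had 47.8, 74.9, 73.3 and 115 CPM and the 5 mutants had 21.2, 24.2, 14.6, 27.1 and 21.5 CPM. The highest mutant value was under the lowest control value, and the means differed by 3.37-fold on the log2(CPM + 1) scale (difference -1.75 ± 0.29 SE). Axon pieces of controls had 53.6, 95.7, 88.9 and 62.2 CPM and the mutants 96.4, 425, 297, 202 and 232 CPM. All 5 mutants lay above the highest control, mutant 1 only just, and the difference was 1.61 ± 0.41 SE, or 3.05-fold. In the ventral piece the ranges overlapped, with 37.8, 172, 124 and 90.9 CPM in controls and 74.1, 88.5, 19.7, 113 and 90.4 CPM in mutants, a difference of -0.46 ± 0.64 SE.

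The exact permutation test of log2(CPM + 1), two-sided over all splits of 9 libraries, gave Mmp14 p = 0.00794 in the dorsal piece, the smallest it can give, and p = 0.0159 in the axon piece. Adjusted over all genes tested, these became 0.45 and 0.939, so neither passed. Groups that did not overlap with mutants lower made up 1.61% of 16145 genes in the dorsal piece, and with mutants higher 0.24% of 14977 genes in the axon piece. By edgeR's quasi-likelihood test with batch as a term, the log2 fold change was -1.60 ± 0.82 SE in the dorsal piece (adjusted p = 0.918) and 1.75 ± 0.56 SE in the axon piece (adjusted p = 0.88). DESeq2, the tool the study used, gave an adjusted p of 0.00063 for Mmp14 in the dorsal piece, where it called 3.3% of genes. Within batch A the dorsal values were 47.8 CPM in the control and 14.6 to 24.2 CPM in mutants, and within batch B 73.3 to 115 CPM and 21.5 to 27.1 CPM. For axon pieces they were 53.6 CPM against 96.4 to 425 CPM in batch A, and 62.2 to 95.7 CPM against 202 to 232 CPM in batch B. Over only the splits that keep the batches, the exact permutation p was 0.025 in both pieces, the smallest possible. Without mutants 1 and 2 the dorsal difference was -1.81 in log2(CPM + 1) (exact permutation p = 0.0286, the smallest that 35 splits allow).

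**Figure D2:**
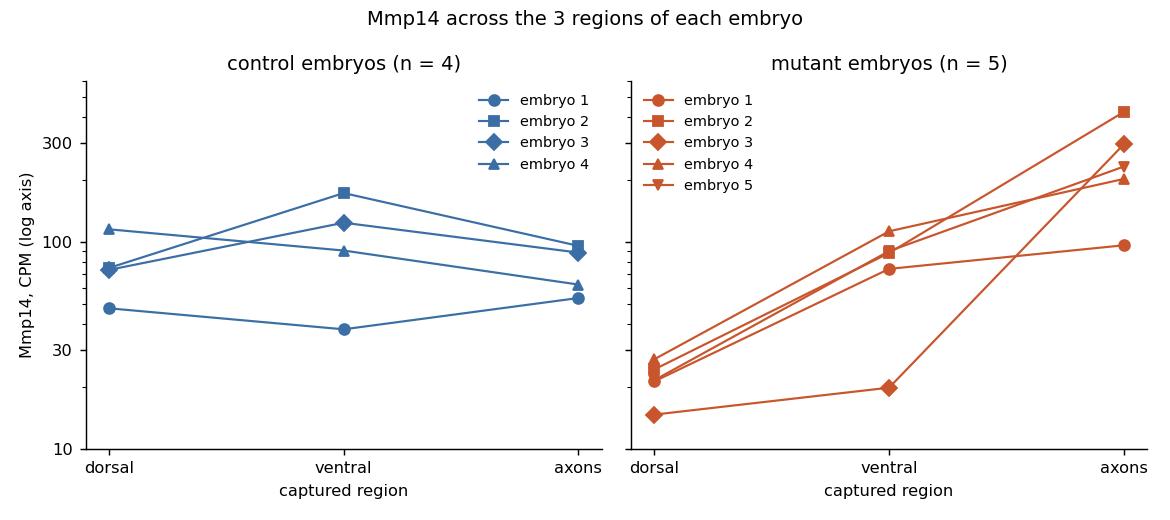
Mmp14 in the 3 captured regions of each embryo, in CPM on a log axis. Each line joins the libraries of 1 embryo, with the 4 controls on the left and the 5 mutants on the right. In every mutant embryo the level was lowest in the dorsal and highest in the axon piece, while the lines of control embryos crossed.

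Within mutant embryos, Mmp14 rose from the dorsal to the axon piece. There, the dorsal library was below the axon library in 5 of 5 embryos, by 2.13 to 4.25 on the log2(CPM + 1) scale. Control embryos differed by -0.35 to 0.88, with 1 of 4 higher in the dorsal piece. The fold change between dorsal and axon piece in mutants was -3.72 ± 0.55 SE (log2, edgeR with embryo as a block, adjusted p = 0.000711), the only one of the 9 genes to pass in any of the 12 comparisons fitted. In that comparison 0.508% of 16330 genes were called lower. The same fit gave -0.17 ± 0.55 SE in controls. For the difference of the genotype effect between dorsal and axon piece, the exact test gave -3.36 (p = 0.00794, adjusted p = 0.779), with no overlap between the embryos of each genotype, as in 0.651% of 16292 genes in that direction. The edgeR interaction was -3.54 ± 0.76 SE (adjusted p = 0.236), rank 10 among 16330 genes. Without mutants 1 and 2, the mutant difference between dorsal and axon piece was -3.87 ± 0.72 SE (edgeR adjusted p = 0.0269), and the difference of the genotype effect between these pieces was -3.51 (exact permutation p = 0.0286, again the smallest possible).

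The ventral piece of mutants stood between the others. Mmp14 there was above the dorsal library in 5 of 5 mutant embryos (edgeR log2 fold change, dorsal against ventral, -1.75 ± 0.50 SE, adjusted p = 0.712, and -1.67 ± 0.66 SE without mutants 1 and 2) and below the axon library in 5 of 5 (-1.96 ± 0.52 SE, adjusted p = 0.112). Ordered by mean level, the 6 groups were mutant axon (250 ± 122 CPM, SD), control ventral (106 ± 56.6), control dorsal (77.8 ± 27.8), mutant ventral (77.1 ± 34.9), control axon (75.1 ± 20.4) and mutant dorsal (21.7 ± 4.63). The libraries of the 4 groups in the middle of that order overlapped in range.

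Stalk and astrocyte progenitor markers were lower along with Mmp14 in dorsal mutants, whereas the melanin sum was higher there on average, with overlapping ranges. The summed level of 8 stalk and astrocyte progenitor markers was 2510 to 3323 CPM in dorsal controls and 853 to 1721 CPM in dorsal mutants, and that of 8 melanin genes was 43.5 to 5003 CPM and 2989 to 11909 CPM. The progenitor sum of the axon piece was 3791 to 8206 CPM in controls and 3354 to 4663 CPM in mutants, so it was not higher there, unlike Mmp14. The endothelial sum did move with Mmp14 there, at 3.55 to 194 CPM in axon controls and 263, 363, 342, 0.584 and 250 CPM in axon mutants, 4 of 5 above the highest control. The melanin sum was 13.7 to 558 CPM in axon controls and 3.91 to 1237 CPM in axon mutants, 3 of 5 above the highest control. Most of that sum was Pmel, with means of 95.4 CPM in axon controls and 663 CPM in axon mutants. Dct was lower in axon mutants (77.7 and 6.98 CPM), while Oca2 (0.716 and 25.4 CPM) and Tyrp1 (0 and 11.6 CPM) were higher. Mutant 4, with the lowest endothelial and melanin sums of the axon mutants, had 202 CPM of Mmp14, above every control. The part of these cell types in the Mmp14 levels was not tested.

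The 2 other membrane-type enzymes measured here showed no difference of that kind. Mmp15 (MT2-MMP, ENSMUSG00000031790.8, chr8:95352268-95375080, plus strand) had 0 to 25.8 CPM in dorsal controls and 7.71 to 22.8 CPM in dorsal mutants, and 0 to 26.1 CPM and 0 to 53.7 CPM in the ventral piece. In the axon piece the controls had 0, 29.2, 5.19 and 2.43 CPM, and the mutants had 0, 0, 1.7, 0 and 0.399 CPM. The mutant axon libraries were lower than the dorsal library of the same embryo in 5 of 5 embryos (edgeR adjusted p = 0.372). Mmp16 (MT3-MMP, ENSMUSG00000028226.15, chr4:17852893-18119145, plus strand) ranged from 0.806 to 132 CPM in dorsal controls and from 0.715 to 65.1 CPM in dorsal mutants, so the dorsal ranges overlapped almost throughout. Its adjusted p was 0.93 or higher in all 12 edgeR comparisons. Mmp17 (MT4-MMP), the only further membrane-type gene to pass the count filter, had 9.48 CPM on average.

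Mmp2 was high in the dorsal piece of controls and low in that of mutants. The gene (ENSMUSG00000031740.8) lies at chr8:92827291-92853420 on the plus strand. Dorsal controls had 85.2, 227, 427 and 124 CPM, and dorsal mutants 2.11, 0, 60.7, 20.1 and 30.4 CPM. All 5 mutants were below the lowest control, with a difference of -4.10 ± 1.22 SE in log2(CPM + 1) (exact permutation p = 0.0159, adjusted p = 0.506). The ventral ranges overlapped, at 1.79 to 78.8 CPM in controls and 0.697 to 101 CPM in mutants. In the axon piece the controls had 81, 4.58, 3.88 and 30.9 CPM, and 3 of 5 mutants had no read, mutant 3 had 2.24 CPM and mutant 5 had 83.5 CPM. Within batch A the dorsal values were 85.2 CPM in the control and 0 to 60.7 CPM in mutants, and within batch B 124 to 427 CPM and 20.1 to 30.4 CPM (exact permutation p within batches 0.025). By edgeR the dorsal log2 fold change was -2.86 ± 1.43 SE (adjusted p = 0.918). Without the count filter Mmp2 passed, at an adjusted p of 0.0438, where 101 genes were called in place of 2. Without mutants 1 and 2 the dorsal difference was -2.39 (exact permutation p = 0.0571).

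Reck followed Mmp2 in the dorsal piece. The gene (ENSMUSG00000028476.13) lies at chr4:43875530-43944806 on the plus strand. Dorsal controls had 26.7, 64.6, 122 and 30.7 CPM, and dorsal mutants 0, 2.15, 0, 0.207 and 37.4 CPM. Mutant 5 lay inside the control range and the 4 others below it, and the difference in log2(CPM + 1) was -4.25 ± 1.12 SE (exact permutation p = 0.0317, adjusted p = 0.622). Batch A had 26.7 CPM in the control and 0 to 2.15 CPM in mutants, and batch B 30.7 to 122 CPM and 0.207 to 37.4 CPM (exact permutation p within batches 0.05). In the ventral piece Reck was low in both genotypes, with 6.69, 0, 0 and 3.67 CPM in controls and 0, 2.34, 18.3, 2.86 and 14.3 CPM in mutants. In the axon piece, control 1 had 36.9 CPM, the 3 other controls had at most 0.0458 CPM, and all 5 mutants had no read, which allows at most 0.128 to 0.204 CPM in a library. The edgeR adjusted p for that comparison was 0.88, and without control 1 both groups are at or under the floor, so no fold change is given. Dorsal minus ventral within embryos, Reck was 1.85 to 6.95 in controls and -4.27 to 1.33 in mutants (log2(CPM + 1)). These did not overlap (exact permutation p = 0.00794, adjusted p = 0.771), as for 0.821% of 16329 genes in that direction. Without mutants 1 and 2 the dorsal difference between genotypes was -3.85 (exact permutation p = 0.0857), and the within-embryo difference between genotypes moved from -5.34 to -5.94 (exact permutation p = 0.0571).

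Mesenchyme markers moved with Mmp2, Reck and Mmp14 between genotypes in the dorsal piece. The summed level of 12 mesenchyme markers (Col1a1, Col3a1, Pdgfra, Twist1, Foxc1 and others) was 1269, 3401, 10472 and 1931 CPM in dorsal controls and 110, 66.8, 124, 264 and 375 CPM in dorsal mutants. All 12 were lower on average in dorsal mutants, for example Col3a1 at 1580 and 30.6 CPM. Across the 4 dorsal controls, Mmp2, Reck and the mesenchyme sum had the same order, with control 3 highest in each. That library had 10881 genes with a count, the fewest of the dorsal libraries. Its melanin sum was 43.5 CPM (other dorsal controls 1300 to 5003 CPM), and its sum of 7 erythroid genes 22545 CPM (others 728 to 2713 CPM). The shared order did not hold in the 5 dorsal mutants, where mutant 3 had the highest Mmp2 (60.7 CPM) with no Reck read and a sum of 124 CPM. Over the 27 libraries, which share embryos, r with the mesenchyme sum was 0.30 for Mmp2 and 0.33 for Reck (rho 0.34 and 0.17), and 0.07 and 0.05 without the 2 farthest libraries. For Mmp14 r was 0.38 (rho 0.34), and 0.45 without those 2 libraries. Its r was 0.62 with the stalk and astrocyte progenitor sum (rho 0.56) and 0.46 with the neuronal sum (rho 0.43). With the melanin sum r of Mmp14 was -0.48 (rho -0.55), and with the endothelial sum -0.03 (rho 0.06). Axon pieces had sums of 411 to 2555 CPM in controls and 648 to 2374 CPM in mutants, with none of the 12 at 0 in all mutants, although Reck had no read there and Mmp2 none in 3 of 5. For Mmp14, whose mutant axon libraries were its highest, the mesenchyme sum in the axon piece overlapped between genotypes. The sum of 8 endothelial markers was 239.6 to 452 CPM in dorsal controls and 43.2 to 420 CPM in dorsal mutants. The part of mesenchyme and vessels in the dorsal values of Mmp2, Reck and Mmp14 was not tested.

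**Figure D3:**
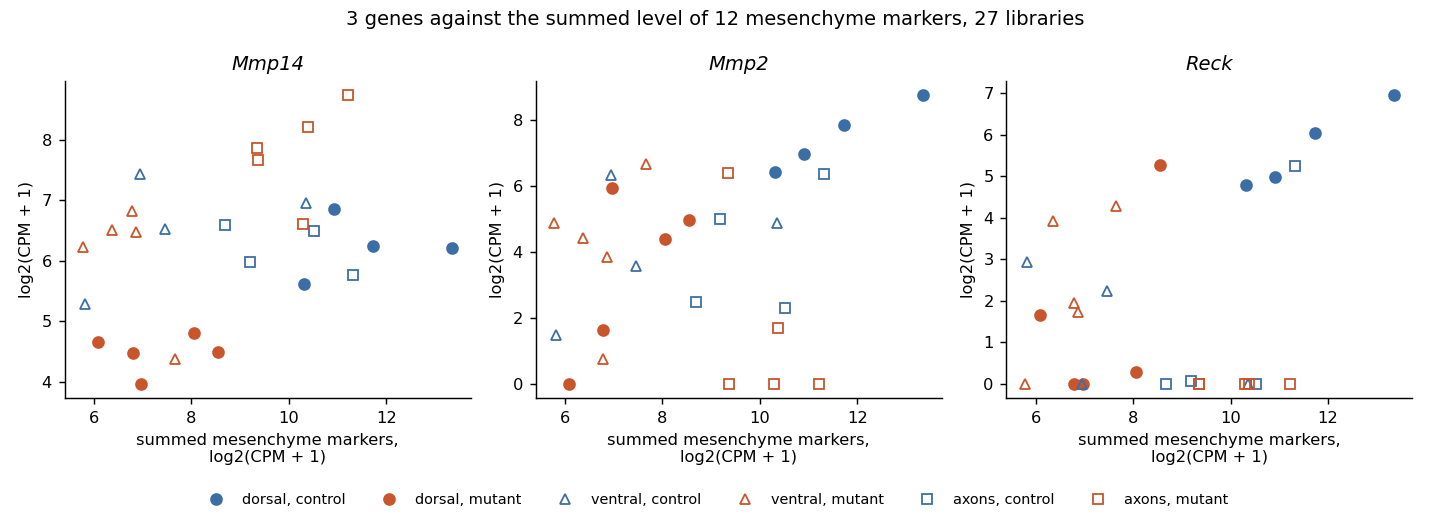
Mmp14, Mmp2 and Reck against the summed level of 12 mesenchyme markers, each as log2(CPM + 1), in the 27 libraries. Filled circles are dorsal, open triangles ventral and open squares axon libraries, blue for controls and orange for mutants. Dorsal controls lie to the upper right for Mmp2 and Reck, and the 5 mutant axon libraries lie at 0 for Reck at mesenchyme sums of 648 to 2374 CPM.

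None of the 3 Timp genes differed between genotypes by a test adjusted over all genes. Timp2 (ENSMUSG00000017466.9, chr11:118301069-118355740, minus strand), the partner of Mmp14 in the activation of Mmp2, had 27.5, 162, 208 and 92.8 CPM in dorsal controls and 158, 23, 55.4, 60 and 48.1 CPM in dorsal mutants. These ranges overlapped (difference -0.76 ± 0.77 SE, and -0.82 without mutants 1 and 2). Axon pieces had 51.1, 0.109, 5.61 and 10.9 CPM in controls and 50.5, 44, 45.5, 0 and 79.5 CPM in mutants (1.57 ± 1.63 SE). Timp2 had its highest mean in dorsal controls (123 ± 79.2 CPM, SD) and its lowest in control axons (16.9 ± 23.2 CPM), a step that passed in DESeq2 but not in edgeR (log2 fold change 3.55 ± 1.93 SE, adjusted p = 0.87). Over the 27 libraries, which share embryos, Timp2 and the sum of 8 endothelial markers had r = 0.81 and rho = 0.57, and r = 0.59 without the 2 libraries farthest out on the endothelial axis. That is a description, without a test.

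Timp1 (ENSMUSG00000001131.11, chrX:20870166-20874735, plus strand) was on or off from library to library. It had 25.8, 15.9, 0 and 19.1 CPM in dorsal controls and 0, 34.7, 49.3, 12.1 and 11.6 CPM in dorsal mutants, and each of the other groups but mutant ventral also held a library at 0. No comparison of Timp1 reached an unadjusted p under 0.05 by edgeR or by the exact test. Timp3 (ENSMUSG00000020044.13, chr10:86300372-86349506, plus strand) shares 21.3% of its exonic bases with Syn3 on the other strand, and the library kit does not mark strand, so reads of both cannot be told apart there. Timp3 was lower in mutant axons, which had 0, 0.256, 0, 0.759 and 0 CPM, than in mutant dorsal pieces, which had 9.54, 35.9, 69.1, 27.5 and 51.8 CPM. The axon library was the lower in 5 of 5 mutant embryos (edgeR adjusted p = 0.233). Control axons had 5.12, 11.2, 0 and 20 CPM (exact permutation p = 0.0476 against mutant axons, adjusted p = 0.939, and 0.075 within batches). Dorsal minus axon within embryos, Timp3 was 0 to 2.37 in controls and 3.40 to 6.13 in mutants (log2(CPM + 1), exact permutation p = 0.00794, adjusted p = 0.779), with no overlap, as in 1.31% of genes in that direction. Without mutants 1 and 2 that difference was 4.24 in place of 3.78 (exact permutation p = 0.0286, the smallest possible). The low number of genes with a count in mutant axons moved with the low values of Timp3, Mmp15 and Reck there, and its part was not tested.

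Bsg was the most even of the 9 genes. Basigin is a chaperone that takes monocarboxylate transporters to the membrane, and was first described as an inducer of metalloproteinases. The gene (ENSMUSG00000023175.15) lies at chr10:79704491-79711969 on the plus strand, and its mean level was at percentile 99.2 of the genes tested. Dorsal controls had 1191, 667, 474 and 884 CPM and dorsal mutants 1083, 846, 872, 492 and 757 CPM. Ventral controls had 991, 762, 1126 and 844 CPM and ventral mutants 720, 700, 675, 783 and 492 CPM, so that 4 of 5 mutants lay below the lowest control. That difference was -0.47 ± 0.17 SE in log2(CPM + 1) (exact permutation p = 0.0238, adjusted p = 1) and -0.54 ± 0.20 SE by edgeR (adjusted p = 0.999). Ventral values were 991 CPM against 675 to 720 CPM in batch A and 762 to 1126 CPM against 492 to 783 CPM in batch B (exact permutation p within batches 0.05). Axon pieces had Bsg at 576 to 1107 CPM in controls and 585 to 757 CPM in mutants.

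**Figure D4:**
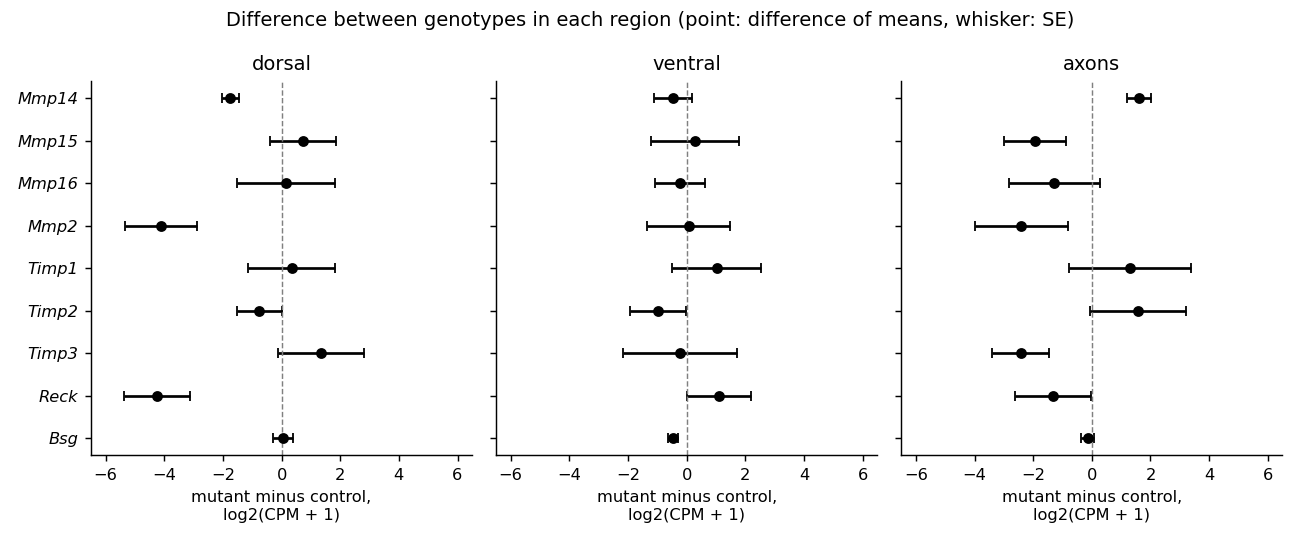
Difference between genotypes (mutant minus control) for the 9 genes in each captured region, in log2(CPM + 1). Points are differences of group means (4 controls, 5 mutants) and whiskers SEs. Mmp14, Mmp2 and Reck lie below 0 in the dorsal piece, and Mmp14 lies above 0 in the axon piece.

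Counted over the 9 genes, edgeR called none between genotypes in any piece, where it called 0.0124% of 16145 genes in the dorsal piece and 0% in the others. An unadjusted p under 0.05 was found for 5.35%, 3.19% and 3.55% of genes in the dorsal, ventral and axon piece, and for 0, 1 (Bsg) and 2 (Mmp14 and Reck) of the 9. An exact p under 0.05 was found for 3 of 9 genes in the dorsal piece (Mmp14, Mmp2 and Reck), 1 in the ventral (Bsg) and 2 in the axon piece (Mmp14 and Timp3), where 7.66%, 4.12% and 4.91% of all genes had one. The median difference of the 9 genes was 0.05, -0.22 and -1.28 in log2(CPM + 1), against 0.01, -0.03 and -0.23 over all genes tested. For the difference of the genotype effect between dorsal and ventral, dorsal and axon, and ventral and axon pieces, an exact p under 0.05 was found for 3, 2 and 1 of the 9, against 5.75%, 6.03% and 4.13% of all genes.

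Between regions, edgeR called 0%, 0.704% and 0.251% of 16330 genes for dorsal against ventral, dorsal against axon and ventral against axon pieces of controls, with none of the 9 among them. The same comparisons in mutants gave 0.0306%, 0.698% and 0.545%, with Mmp14 called in the second of these. For the differences of the genotype effect the shares were 0.00612%, 0.0122% and 0%, again with none of the 9. DESeq2 called many more genes. Between genotypes it called 3.3%, 2.12% and 8.23% in the dorsal, ventral and axon piece, with Mmp14 in the first and Reck in the third. For that Reck call, all 5 axon mutants had 0 reads and 3 of 4 axon controls were at or under 3 counts. The DESeq2 shares were 6.14%, 13.1% and 12% between regions in controls, with Reck called in the first and Reck and Timp2 in the second. In mutants they were 7.7%, 26.3% and 24.1%, with Mmp14 alone in the first and Mmp14, Mmp15, Mmp2, Timp3 and Reck in both others. For the genotype effect they were 5.13%, 13% and 13.2%, with Reck in all 3, Mmp14 in the last 2 and Mmp2 in the last. The direction of Reck between dorsal and axon pieces is not settled by these fits, since DESeq2 gave 12.03 where edgeR gave -2.63 and the log2(CPM + 1) difference was -2.93, with all mutant axon libraries at 0 and the control level set by 1 library.

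The other genes of pericellular proteolysis, 75 in 9 lists, gave few calls. Of 53 that passed the count filter, none was called between genotypes, and 1 was called in any of the 12 comparisons. That gene was Cd63, a tetraspanin that binds Timp1, with 2174 ± 829 CPM (SD) in dorsal and 733 ± 322 CPM in axon pieces of mutants (edgeR log2 fold change 1.41 ± 0.32 SE, adjusted p = 0.0382, and 1.88 ± 0.35 SE, adjusted p = 0.0269, without mutants 1 and 2). Secreted metalloproteinases were scarce. Mmp9, the other gelatinase, had no read in 27 libraries, and of 14 such genes 4 passed the filter, led by Mmp11 (stromelysin 3) at 14.8 CPM on average. Of further inhibitors, Spock3 had 23.5 CPM. Pcsk5 (122 CPM) was the most abundant of 4 proprotein convertases, which remove the inhibitory propeptide of membrane-type enzymes, and Furin had 4.41 CPM.

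In the dorsal piece, 5 of the 53 had an unadjusted edgeR p under 0.05, 2 higher in mutants (Pcsk6 and Cd63) and 3 lower (Lrp1, Adamts15 and Plat), where 5.35% of all genes had one. Lrp1, an endocytic receptor that clears metalloproteinases, had 184 ± 112 CPM in dorsal controls and 51.5 ± 51.5 CPM in dorsal mutants. Adamts15, a proteoglycanase, had 146 ± 78.4 CPM and 13.8 ± 12.2 CPM, and Plat, tissue plasminogen activator, 195 ± 137 CPM and 47.7 ± 47.8 CPM. All 5 had an adjusted p of 0.918, and without mutants 1 and 2 the log2 fold changes were -2.50 ± 0.63 SE for Lrp1, -3.45 ± 0.85 SE for Adamts15 and -2.21 ± 1.01 SE for Plat (adjusted p = 0.889 for each). None of 52 had such a p in the ventral piece, and 2 of 47 did in the axon piece, Mmp11 and Adamts12, both lower in mutants. Among the partners of Bsg, Slc16a1, which codes for the lactate transporter MCT1, had 66.1 ± 37.0 CPM in dorsal controls, 65.2 ± 58.9 CPM in dorsal mutants, 18.1 ± 18.8 CPM in control axons and 0.648 ± 0.880 CPM in mutant axons.

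The genes whose levels ran most like those of Mmp14 over the 27 libraries (Pearson correlation of log2(CPM + 1), 7087 genes with a mean of at least 20 CPM) were Nkain4 (0.74), Ptn (0.73), Kcnq3 (0.72), Manea (0.71) and Gpm6b (0.68). Ptn codes for the growth factor pleiotrophin, Kcnq3 for a potassium channel subunit and Gpm6b for a membrane glycoprotein of neural cells. All 5 had their lowest group mean in mutant dorsal and their highest in mutant axon libraries, as Mmp14 did. Ptn, for example, had 448 CPM and 2943 CPM there, and 1791 to 1996 CPM in the 3 control groups. For Mmp2 the closest were Ascc3 (0.75), Cd276 (0.70), Kifap3 (0.68), Bscl2 (0.67) and Xbp1 (0.67). The libraries share embryos and depth, and no p is given. By rank correlation, 2 of the 5 for Mmp14 and 2 of the 5 for Mmp2 were again among the closest 5. Mmp2 and Reck had r = 0.57 and rho = 0.52 over the 27 libraries.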

How the data were processed

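RNA was measured in laser-captured pieces of the E14 optic stalk, amplified as cDNA by PCR, made into Nextera XT libraries, which do not mark strand, and sequenced as single-end reads. Per the study's methods and the submitters' processing notes, reads were aligned to mm10 with STAR and the authors deposited raw counts per gene from HTSeq, with no normalization. CPM is the deposited count over the library's total, computed here. Totals were 10899418 to 33980417 counts, and the number of reads limits precision as stated at each value. Gene identifiers were named through GENCODE M21 (55227 matched, 260 did not, with 0.00287% of counts).

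Genotypes were compared within a region (4 controls, 5 mutants) with edgeR 4.0.16 (quasi-likelihood F-test, TMM scaling, batch as a term) in R 4.3.3. Regions, and differences of the genotype effect between regions, were fitted over 27 libraries with embryo as a block. The SE given for an edgeR fold change is its absolute log2 value over the square root of the F statistic. Genes needed more than 10 counts in at least 3 libraries, and were called past an absolute log2 fold change of 0.58 with p, after Benjamini-Hochberg adjustment over all genes tested, under 0.05. Exact permutation tests (two-sided) used log2(CPM + 1) over all splits of 9 libraries or embryos, or only the 40 that keep the batches. They were computed with numpy 2.4.6, and the ranks for rho with scipy 1.17.1. Fold changes on the log2(CPM + 1) scale understate those of low genes. The scripts were run on simulated counts with 200 changed genes. These were drawn from genes with a mean of at least 20 CPM, and no batch or embryo effect was simulated. Mmp15, Reck and Mmp16 averaged 12.3, 13.7 and 18.5 CPM over the 27 libraries. Between genotypes in the dorsal piece, edgeR called 12% of 4-fold and 27% of 16-fold changes, with 4 and 7 unchanged genes. DESeq2 called 23% and 70%, with 489 and 539 unchanged genes. For the genotype effect between dorsal and axon pieces, edgeR called 0 of 200 4-fold changes. There the median fitted log2 change of raised genes was 1.36, and 168 of 200 had the right direction. A gene that edgeR did not call is thus not shown to be unchanged. Alternatives were RLE scaling, no count filter, other batch and block terms, DESeq2 1.42.0 (the study's tool), batch B alone, fits on 2 regions, a pseudocount of 0.1, TMM-scaled CPM, within-batch splits and leaving out each replicate.

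The 9 genes and all lists were chosen with earlier results of these data known, and Mmp14 is named in the study's own discussion, so neither is independent evidence. That discussion gives Mmp14 as reduced in the mutant, without naming a piece, in a paragraph that opens with ventral stalk cells and treats astrocyte migration. Here the mutant values of Mmp14 were lower in the dorsal piece and higher in the axon piece. In the ventral piece the ranges overlapped, with a difference of -0.46 ± 0.64 SE in log2(CPM + 1). Named genes were the 9, those called or among the 3 most abundant of each list, and the 5 most like Mmp14 or Mmp2. Mmp9 and the listed genes with an unadjusted p under 0.05 were named after their values were seen. Replicates are embryos by the number in the labels. Over 27 pairs of libraries, those of 1 embryo deviated together with correlations of -0.019 to 0.115 (median 0.037), and the block rests on their coming from 1 animal.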

Additional observations from a re-analysis of the deposited data

Results flagged for a closer look

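Dixon's criterion for an outlying library is met by chance in about 1 in 20 groups when values are normally distributed. CPM here is skewed, with libraries at 0, so that rate need not hold. In 9 of 53 groups of 4 or 5 libraries tested, the highest library stood apart from the rest by this criterion. These were Mmp15 in axon mutant 3 (1.70 CPM, others 0 to 0.399), Mmp16 in dorsal control 4 (132 CPM, others 0.806 to 16.2) and axon mutant 3 (51.1 CPM, others 0 to 8.0), and Mmp2 in ventral mutant 3 (101 CPM, others 0.697 to 28.5) and axon mutant 5 (83.5 CPM, others 0 to 2.24). The others were Timp2 in dorsal mutant 1 (158 CPM, others 23.0 to 60.0), Timp3 in dorsal control 4 (107 CPM, others 0 to 16.8), and Reck in dorsal mutant 5 (37.4 CPM, others 0 to 2.15) and axon control 1 (36.9 CPM, others 0 to 0.0458).

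The genotype effect differed between regions with an unadjusted exact permutation p under 0.05 in 6 of 27 tests, none of which passed after adjustment over all genes. Between dorsal and ventral pieces these were Mmp14 (-1.29, exact p = 0.0397, adjusted p = 0.828), Mmp2 (-4.17, exact p = 0.0476, adjusted p = 0.828) and Reck (-5.34, exact p = 0.00794, adjusted p = 0.771). Between dorsal and axon pieces they were Mmp14 (-3.36, exact p = 0.00794) and Timp3 (3.78, exact p = 0.00794), both with an adjusted p of 0.779, and between ventral and axon pieces Mmp14 (-2.07, exact p = 0.0317, adjusted p = 1). All are differences in log2(CPM + 1). Without mutants 1 and 2, those between dorsal and ventral pieces were -1.16 for Mmp14 (exact p = 0.143) and -2.29 for Mmp2 (exact p = 0.171).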

How the results depend on the processing

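The call of Mmp14 between dorsal and axon pieces of mutants held in all 15 alternatives (adjusted p 1.99e-14 to 0.0269). Over all 108 results of the 9 genes, 7.61% of 1656 refits turned the sign of the fold change, 1 of them with a call, Reck for the genotype effect between dorsal and axon pieces (-2.63 by edgeR and 12.03 by DESeq2, adjusted p = 0.00381), where the axon values are mostly 0. For the 24 results with an unadjusted p under 0.05 in either test, 370 refits were counted by the adjusted call. Of these, 354 matched the main fit and 16 were newly called. Only Mmp14 between dorsal and axon pieces of mutants was called in the main fit. Most matches are thus results that were called in neither fit. Of 152 exact tests, 90 kept an unadjusted p under 0.05 and 62 lost it. The exact p of Mmp14 ranged from 0.00794 to 0.0286 in the dorsal piece and from 0.0159 to 0.0536 in the axon piece, that of dorsal Mmp2 from 0.0159 to 0.0571 and that of dorsal Reck from 0.0286 to 0.0857.

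DESeq2 called far more genes than edgeR. Between genotypes it called 532, 342 and 1233 in the dorsal, ventral and axon pieces (edgeR 2, 0 and 0), with 1, 0 and 1 of the 9 genes. Between dorsal and ventral, dorsal and axon, and ventral and axon pieces it called 1002, 2144 and 1961 in controls (1, 2 and 0 of the 9) and 1258, 4290 and 3941 in mutants (1, 5 and 5 of the 9). For the differences of the genotype effect it called 838, 2121 and 2148 (1, 2 and 3 of the 9), where edgeR called 1, 2 and 0. Without the count filter, edgeR called 101, 8 and 10 genes between genotypes (1, 0 and 0 of the 9) and 71 in place of 115 between dorsal and axon pieces of controls, where RLE scaling gave 62.

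In the dorsal piece, 8 genes were called between genotypes without the batch term, and 0 in batch B alone. The replicate number does not pair the genotypes (correlations of -0.051 to 0.028 in 12 pairs), and with it as a replicate block, beside or in place of the batch term, 0 genes were called there. With no replicate block for embryos, 73 genes were called between dorsal and axon and 27 between ventral and axon pieces of controls, 3 between dorsal and ventral pieces of mutants, and 4 and 1 for the genotype effect between dorsal and axon and between ventral and axon pieces. With only the libraries of the 2 regions, the counts were 50 for dorsal and axon pieces of controls, 11, 52 and 56 for the 3 comparisons in mutants and 0 for the genotype effect between dorsal and ventral pieces.

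The alternatives chosen after seeing the data were the block in place of batch and leaving out mutant embryos 1 and 2. The latter gave 0 genes between genotypes in the dorsal piece, 25 between ventral and axon pieces of controls, 2, 45 and 33 for the 3 comparisons in mutants, and 1 for the genotype effect between ventral and axon pieces. Leaving out each replicate in turn gave 0 to 2 genes between genotypes in the dorsal piece. For dorsal and ventral, dorsal and axon, and ventral and axon pieces it gave 0 to 1, 57 to 109 and 13 to 37 in controls, 2 to 8, 65 to 136 and 58 to 105 in mutants, and 1 to 1, 2 to 3 and 0 to 1 for the genotype effect. Mmp14 between dorsal and axon pieces of mutants was the only one of the 9 called in any of these. The cause of these shifts was not tested.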
